A study of Mus musculus with 53 samples.

Results

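Otx1, Otx2 and Dmrta1 are 3 transcription factor genes, 3 of the 55573 genes in the bulk RNA-seq tables and 3 of the 57010 genes in the single-cell matrices, and each symbol had 1 entry in both kinds of file. Otx1 lies on chromosome 11 (21994764 to 22001651), Otx2 on chromosome 14 (48656781 to 48667644) and Dmrta1 on chromosome 4 (89688198 to 89694766) of RefSeq build GRCm38.p6. They are regional factors chosen by their measured levels, since a pair of them, Otx1 and Dmrta1, was strongly lower in mutant than in control cerebella, and the choice names no age. Their differences at postnatal day 2 (P2) are given as levels with no test. Tests are given for other animals at postnatal day 7 (P7), measured with another assay, but those of the mutants cannot be taken as independent of the choice.

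The study deleted genes in the mouse cerebellum with Atoh1Cre, a Cre recombinase driven by the Atoh1 locus, which is active in rhombic lip derivatives and above all in granule cell progenitors. Insm1 mutants were Atoh1Cre;Insm1 fl/fl, and Tead1/2 mutants were Atoh1Cre;Tead1 fl/fl;Tead2 fl/fl. Controls were homozygous for the same floxed alleles and carried no Cre, so effects of Cre itself cannot be told apart from effects of the deletions. Bulk RNA-seq at P2 used cerebella of individual pups: 4 Insm1 controls, 4 Insm1 mutants, 3 Tead1/2 controls and 4 libraries labelled Tead1/2 mutant. Single-cell RNA-seq at P7 used 1 cerebellum per library, with 2 controls and 3 mutants for each allele. In each of the 4 genotype groups the P7 library numbered 1 held all lobules, and the libraries numbered 2 and 3 were taken without lobules IX and X, the posterior lobules next to the fourth ventricle. That gives 4 libraries with all lobules and 6 without lobules IX and X.

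Otx1 and Otx2 encode paired-type homeodomain proteins related to Drosophila orthodenticle. In the embryo Otx2 marks forebrain and midbrain and helps to set the boundary between midbrain and hindbrain. After birth both genes are known in the external granule layer of the cerebellum, where proliferating granule progenitors sit, with Otx2 strongest in posterior lobules, and Otx2 is also high in choroid plexus epithelium. Dmrta1 encodes a member of the DM-domain family, whose founding members regulate sexual development, and its role in the cerebellum is less well known. INSM1 is a zinc-finger repressor of neural progenitors, and TEAD1 and TEAD2 are the DNA-binding partners of the YAP and TAZ coactivators.

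The RefSeq promoter table (GRCm38.p6) matched 2 of the 3 genes, and Otx1 had no entry. The 250 bases before the annotated start are shown for Dmrta1 and for 1 of the 4 annotated Otx2 starts, because the deletions remove 2 TEAD factors and because OTX proteins bind a TAATCC core. Capitals mark a match to TAATCC or its reverse complement GGATTA.
Dmrta1, chr4:89687948-89688197, plus strand: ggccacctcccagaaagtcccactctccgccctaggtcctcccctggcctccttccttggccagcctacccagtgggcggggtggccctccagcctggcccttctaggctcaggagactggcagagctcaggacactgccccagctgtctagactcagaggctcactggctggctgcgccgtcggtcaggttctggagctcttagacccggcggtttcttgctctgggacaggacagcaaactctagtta
Otx2, chr14:48665110-48665359, minus strand: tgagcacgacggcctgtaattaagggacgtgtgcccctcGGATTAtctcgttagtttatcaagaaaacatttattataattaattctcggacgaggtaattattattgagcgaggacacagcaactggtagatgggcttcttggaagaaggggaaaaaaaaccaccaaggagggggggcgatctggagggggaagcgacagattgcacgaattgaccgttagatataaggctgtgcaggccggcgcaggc
The TEAD core GGAATG and its reverse complement CATTCC were searched on both strands and had 0 matches in these windows or at the other 3 Otx2 starts. The OTX core was found once, on the opposite strand at the Otx2 start shown, with its first base at -211. Over 32851 annotated mouse starts, 12.6% of such windows held the TEAD core and 6.25% the OTX core, so these counts are a description of the windows and name no site of binding.

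The deleted genes were checked first. At P2 Insm1 was between 30.8 and 72.0 CPM (counts scaled to a common library total) in its controls and between 8.45 and 16.1 CPM in the Insm1 mutants. At P7 it was 77.0 and 81.1 CPM in the progenitor-like cells (a class described further on) of Insm1 controls and 31.9, 7.45 and 9.19 CPM in those of Insm1 mutants 1, 2 and 3. Insm1 mutant 1, a library of all lobules, thus kept more Insm1 RNA than the other mutants, and over all cells as well (14.5 against 5.73 and 7.67 CPM). Tead2 was between 22.3 and 25.7 CPM in Tead1/2 controls and between 17.4 and 19.5 CPM in mutants 1 to 3, but 25.9 CPM in the library labelled Tead1/2 mutant 4. At P7 Tead2 was 30.1 and 31.9 CPM in controls and 7.26 to 9.15 CPM in mutants, while Tead1 was higher in the mutants (1125 to 1312 CPM against 630 and 631 CPM), so the Tead1 total does not check its deletion. The summed level of 13 skeletal muscle markers at P2 was 160 to 275 CPM in Insm1 mutants, 224 CPM at most in Tead1/2 mutants, and 18 CPM in the library labelled Tead1/2 mutant 4, inside the control range of 17.8 to 41.5 CPM. That library goes against its label, and P2 values for the Tead1/2 allele are given with and without it. P2 libraries held 28066726 to 64518819 expected counts, and P7 libraries held 4779 to 10710 cells with 90269989 to 211707202 unique molecular identifiers (UMIs, one per captured transcript).

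Otx1 at P2 was far lower in both mutants. In Insm1 controls it was 1.71, 1.56, 1.99 and 3.15 CPM, and in Insm1 mutants 0.317, 0.205, 0.233 and 0.0635 CPM. The groups did not overlap, and the mean was 10.3-fold lower in the mutants (2.10 ± 0.719 against 0.204 ± 0.105 CPM, SD, n = 4 and 4). By edgeR 0.689% of 19582 genes were called in this contrast at an adjusted p under 0.05. How many of all genes have groups that do not overlap was not counted, here or in later comparisons. In Tead1/2 controls Otx1 was 1.24, 1.59 and 0.817 CPM. Mutants 1, 2 and 3 had 0.0227, 0.237 and 0 CPM, from 1, 15 and 0 expected counts, where a count of 0 allows up to 3 counts or 0.0838 CPM. The library labelled Tead1/2 mutant 4 had 0.925 CPM, inside the control range. The mean was 4.11-fold lower with that library and 14-fold lower without it, and edgeR called 0% of 20247 genes in the contrast of all 7 libraries.

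Dmrta1 was lower in the same libraries as Otx1. It was 6.42, 8.16, 10.2 and 8.60 CPM in Insm1 controls and 3.12, 1.84, 2.56 and 2.06 CPM in Insm1 mutants, which is 3.48-fold lower on the means (8.35 ± 1.56 against 2.40 ± 0.568 CPM, SD, n = 4 and 4) with no overlap. Tead1/2 controls had 10.1, 7.53 and 5.29 CPM. Mutants 1, 2 and 3 lay close together at 1.97, 1.85 and 1.83 CPM, and the library labelled Tead1/2 mutant 4 had 7.63 CPM. Without that library the mean was 4.06-fold lower in the mutants, and with it 2.30-fold lower. Across the 15 P2 libraries the log2 levels of Dmrta1 and Otx1 had a Pearson r of 0.918, a description of points that share the genotype groups.

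Otx2 was not lower in either mutant. In Insm1 controls it was 16.7, 22.1, 17.2 and 14.8 CPM and in Insm1 mutants 21.1, 20.4, 29.2 and 19.4 CPM, so the groups overlapped and the mutant mean was 1.27-fold the control mean. In Tead1/2 controls it was 6.14, 10.8 and 15 CPM, and in mutants 1 to 3 it was 11.1, 22.5 and 14.3 CPM, with 10.1 CPM in the library labelled Tead1/2 mutant 4. These groups overlapped too, with a mean ratio of 1.36, or 1.49 without that library. Tead1/2 mutant 2, the highest of them, also held choroid plexus RNA: 10 choroid markers summed to 65.1 CPM there, with Ttr, the transthyretin gene of choroid epithelium, at 55.1 CPM against 0.355 to 3.30 CPM in the other Tead1/2 libraries. The part of this in the Otx2 level was not tested. Leaving that mutant out moved the Otx2 log2 difference from 0.47 to 0.16.

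**Figure D1:**
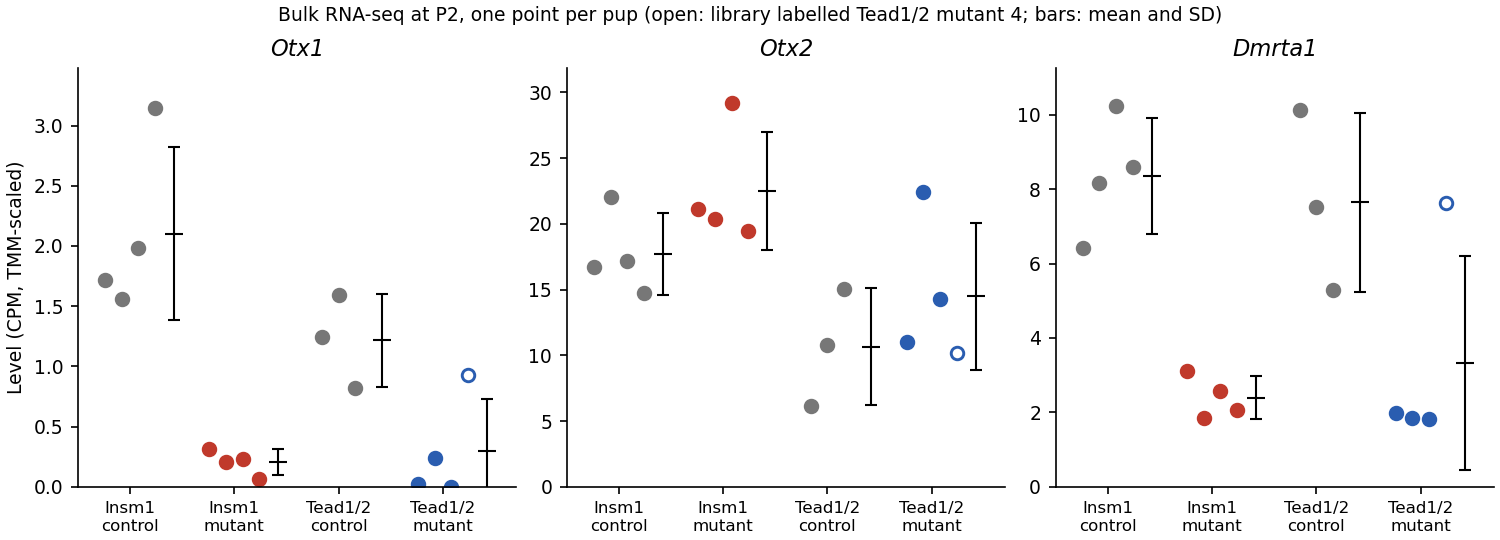
Level of each gene in CPM (y axis, linear) in the 15 bulk libraries at P2, by genotype group (x axis), with 1 point per pup and the mean and SD beside each group. Otx1 and Dmrta1 points of the mutants lie under all control points except the open point, the library labelled Tead1/2 mutant 4, while Otx2 groups overlap.

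Bulk values cannot tell fewer cells of a type from less RNA per cell, so the granule progenitor list is given beside these falls. Its 23 genes summed to 2934 to 3235 CPM in Insm1 controls and 2452 to 2826 CPM in Insm1 mutants. For the Tead1/2 allele the sums were 2679 to 2962 CPM in controls and 2726 to 2912 CPM in mutants. In the Insm1 contrast edgeR called 4 of the 23 as lower and 0 as higher, against 0.209% and 0.48% of all genes: Sfrp1, a secreted Wnt antagonist (log2 change -1.17, SE 0.08), Insm1 (-1.91, SE 0.30), the bHLH gene Nhlh1 (-0.89, SE 0.15) and the homeobox gene Barhl2 (-1.14, SE 0.22). Insm1 is the gene deleted in these mutants, so its call follows from the design. Of 28 tested regional factors of midbrain, hindbrain and rhombic lip, edgeR called 1, En1, an engrailed homeobox gene of the midbrain-hindbrain region (-0.56, SE 0.10). The median log2 change was -0.20 over the granule progenitor list, -0.02 over the regional factors and 0.01 over all genes tested.

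No gene of these lists was called in the P2 Tead1/2 contrast, where the edgeR count over all genes was 0 as well, with 4052 genes at an unadjusted p under 0.05 and 960 called by DESeq2. List medians over all 7 libraries were -0.05 for the 23 granule progenitor factors and -0.07 for 28 regional factors, against -0.01 over all genes. When the library labelled Tead1/2 mutant 4 was left out, 646 genes passed in edgeR (3.19% of 20234, with 1.98% higher and 1.22% lower), and the medians were -0.06 and -0.08. Of the granule progenitor factors, 3 were then lower, Sfrp1 (-1.08, SE 0.09), Nhlh1 (-0.86, SE 0.08) and Barhl2 (-1.01, SE 0.22), and 2 higher, Insm1 (0.58, SE 0.07) and the cyclin gene Ccnd1 (0.52, SE 0.07). Of the regional factors 1 was lower, Lhx1 (-0.46, SE 0.08), a LIM-homeobox gene. The 10 midbrain colliculus markers, used to see whether midbrain tissue came along in the dissection, summed to 34.5 to 45.3 CPM in Insm1 controls and 28.4 to 32.0 CPM in Insm1 mutants, and to 34.5 to 41.0 and 17.4 to 32.9 CPM in Tead1/2 controls and mutants. None of the 7 tested was called in either contrast. Without the library labelled Tead1/2 mutant 4 the sums were 17.4 to 17.8 CPM in the Tead1/2 mutants, and 2 of the 7 were lower, Chrna3 (-1.49, SE 0.12) and Pou4f2 (-1.74, SE 0.19). At P7 Chrna3 was 43.5 to 60.5 CPM in the progenitor-like cells of controls, while Pou4f2 was at 0 in those of all 10 libraries. Whether less midbrain tissue was taken from these mutants was not tested. The 8 hindbrain Hox genes did not pass the filter on low counts at P2.

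At P7, in sums over all cells of a library, Otx1 fell in both mutants and fell further after loss of Tead1 and Tead2. It was 17.6 and 21.3 CPM in Insm1 controls and 2.44, 2.23 and 1.72 CPM in Insm1 mutants. Tead1/2 controls had 16.9 and 18.6 CPM, and the mutants 0.318, 0.240 and 0.334 CPM, from 29, 53 and 46 UMIs. The mutant groups lay under every control, and the 3 Tead1/2 mutants lay under all 3 Insm1 mutants. By edgeR the log2 change was -3.19 (SE 0.15, adjusted p = 2.09e-07) for Insm1 and -5.93 (SE 0.18, adjusted p = 7.92e-09) for Tead1/2, where 33.9% and 48.6% of 24602 genes were called. As Otx1 was chosen for its fall in mutants, these p-values are no independent test. The difference between these effects was 2.74 on the log2 scale (SE 0.24, adjusted p = 0.00105), a contrast in which 3.68% of genes were called, 1.51% higher and 2.17% lower.

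Dmrta1 fell in both P7 mutants as well. It was 9.73 and 10.2 CPM in Insm1 controls and 1.60, 1.38 and 1.23 CPM in Insm1 mutants. The Tead1/2 controls were lower than the Insm1 controls, at 5.05 and 3.24 CPM, and their mutants had 0.723, 0.764 and 1.09 CPM. Log2 changes were -2.83 (SE 0.21, edgeR adjusted p = 4.62e-06) and -2.27 (SE 0.21, edgeR adjusted p = 1.32e-05). Dmrta1 was chosen in the same way as Otx1, so these p-values are no independent test either. The difference between both effects was -0.56 (SE 0.30, edgeR adjusted p = 0.341) and did not pass the threshold. In progenitor-like cells alone, described further on, that difference had the opposite sign (1.46, SE 0.70, edgeR adjusted p = 0.425).

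Otx2 was higher in the mutants at P7. It was 32.6 and 18.6 CPM in Insm1 controls and 50.7, 35.7 and 33.9 CPM in Insm1 mutants, and 28.2 and 24.8 CPM in Tead1/2 controls against 38.7, 34.0 and 35.0 CPM in their mutants. All mutants lay above the controls of their allele, by a narrow margin for Insm1 because control 1 was high. The Insm1 log2 change of 0.65 (SE 0.23) passed at an edgeR adjusted p of 0.0499, and the Tead1/2 change of 0.44 (SE 0.23) did not, at 0.137. The Insm1 call held in 2 of the 10 fits that each left out a library, with adjusted p from 0.00571 to 0.345. Without Insm1 control 2 the change was 0.28 (adjusted p = 0.345), and without Insm1 mutant 1, the mutant with the most Insm1 left, it was 0.44 (adjusted p = 0.144). With the library number as a block the Tead1/2 change passed as well (0.50, adjusted p = 0.0235), and with the dissection as a block it was 0.51 (adjusted p = 0.0116). The choroid marker list summed to 6.31 to 7.31 CPM in Insm1 controls and 8.48 to 9.06 CPM in Insm1 mutants, and to 36.4 to 73.5 CPM in Tead1/2 controls and 13.5 to 14.5 CPM in their mutants, where Ttr fell from 24.9 and 58.0 CPM to at most 0.296 CPM.

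Ages were set side by side without a test, since assay and scaling differ. Otx1 was 10.3-fold lower at P2 and 9.12-fold lower at P7 in Insm1 mutants. In Tead1/2 mutants it was 14-fold lower at P2 without the library labelled mutant 4 (4.11-fold with it), and 59.7-fold lower at P7. Dmrta1 was 3.48-fold and 7.10-fold lower in Insm1 mutants at the 2 ages. In Tead1/2 mutants it was 4.06-fold lower at P2 without that library (2.30-fold with it), and 4.83-fold lower at P7. Otx2 ratios of mutant to control were 1.27 at P2 and 1.57 at P7 for Insm1. For Tead1/2 they were 1.49 at P2 without that library (1.36 with it), and 1.35 at P7. These P7 values are over all cells. In progenitor-like cells, described further on, Otx1 was 5.2-fold lower in Insm1 and 59.5-fold lower in Tead1/2 mutants. Dmrta1 was 5.67-fold and 16.1-fold lower there, and the Otx2 ratios were 2.09 and 2.09.

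Cell classes at P7 were rebuilt from fixed markers after removal of doublet calls, and clusters were made without the 3 genes. In the 4 control libraries the mean of each of the 3 genes over libraries was highest in granule progenitor-like clusters. For Otx2 this order rests on the removal of doublet calls: with them kept, its control mean was 51.2 CPM in ependyma-like cells (18.8 to 109 CPM in 3 libraries), a class not found after the removal, against 39.4 CPM in progenitor-like cells. Otx1 was 34.1 ± 4.98 CPM there (SD, n = 4), 5.68 ± 0.549 CPM in granule neuron-like clusters and at most 1.65 CPM on average in any of the other classes. Otx2 was 41.9 ± 8.15 CPM in progenitor-like and 16.2 ± 7.35 CPM in granule neuron-like clusters, and at most 2.41 CPM on average in any other named class. Single control libraries reached 4.82 CPM, in the astroglia-like cells of Insm1 control 1. Dmrta1 was 11.8 ± 7.26 CPM in progenitor-like clusters, where the 4 controls ran from 3.36 to 18 CPM, and 3.04 ± 1.47 CPM in granule neuron-like clusters. After the removal of doublet calls the order from progenitor to neuron to the other classes held in each of the 4 libraries for Otx1 and Otx2. The levels in the other classes then rest on 0 to 13 UMIs over the control libraries and their order cannot be read. With doublet calls kept, granule neuron-like cells had the lowest control means of the named classes. Otx1 was 6.82 CPM there and at least 12.7 CPM in the others, and Otx2 was 17.9 and at least 19.4 CPM.

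**Figure D2:**
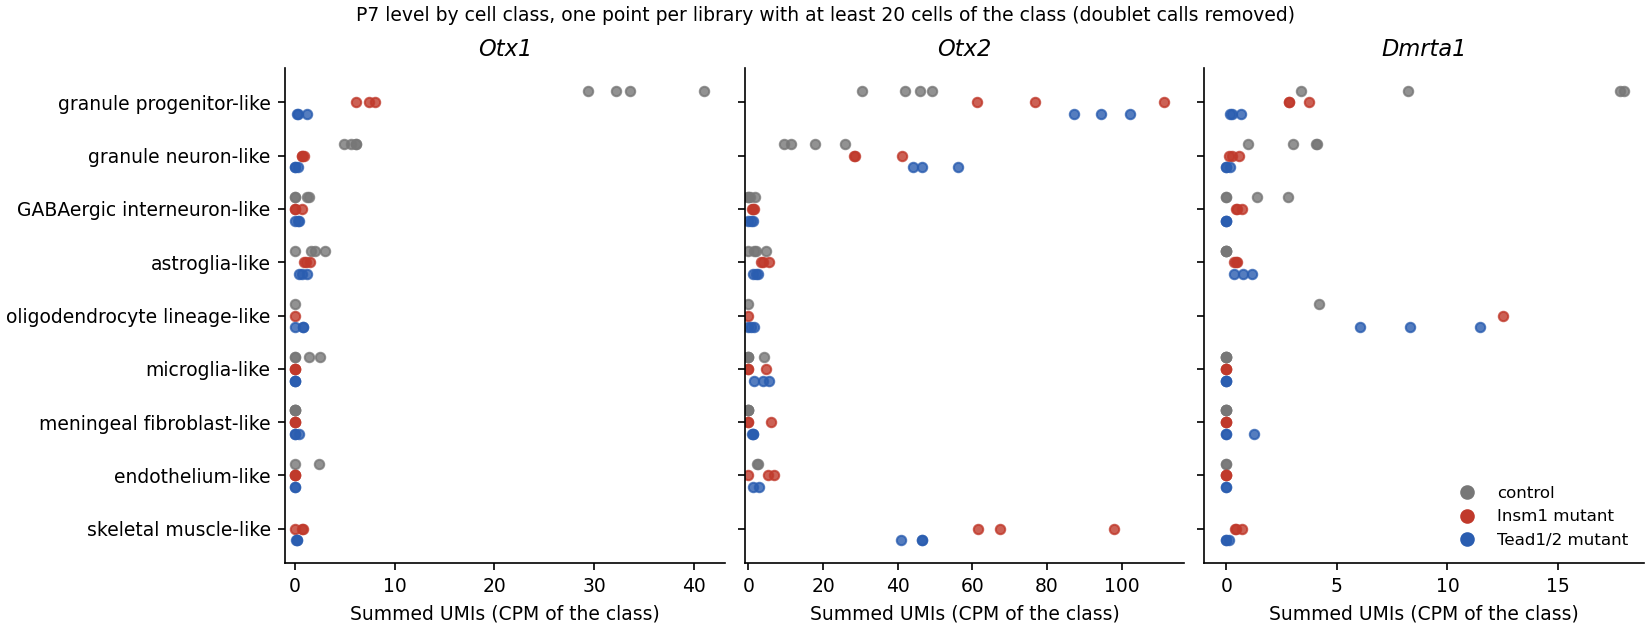
Level of each gene (x axis, CPM of the UMIs of a class) in the named cell classes at P7 (y axis), with 1 point per library that held at least 20 cells of the class, grey for controls, red for Insm1 mutants and blue for Tead1/2 mutants. Otx1 is highest in control progenitors, Otx2 reaches 98.1 CPM in the skeletal muscle-like cells of the 6 mutants, and the highest Dmrta1 point of the oligodendrocyte lineage, 12.5 CPM in Insm1 mutant 2, rests on 3 UMIs in 22 cells.

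The opposite changes of Otx1 and Otx2 stood within the progenitor-like cells. Otx1 there was 33.6 and 41.2 CPM in Insm1 controls and 7.42, 8.10 and 6.12 CPM in Insm1 mutants (log2 change -2.34, SE 0.20, edgeR adjusted p = 3.78e-06). In Tead1/2 controls it was 30.05 and 32.8 CPM, and the 3 mutants had 0.141, 1.18 and 0.261 CPM from 1, 7 and 2 UMIs (-5.98, SE 0.31, edgeR adjusted p = 1.46e-07). Without Tead1/2 mutant 2 this was -7.18, and it was -5.53 at the other end of the fits that left out 1 library. Dmrta1 fell from 17.8 and 18 CPM to 3.77, 2.87 and 2.83 CPM in Insm1 mutants (-2.48, SE 0.31, edgeR adjusted p = 8.65e-05). It fell from 8.41 and 3.42 CPM to 0.281, 0.169 and 0.651 CPM in Tead1/2 mutants, from 2, 1 and 5 UMIs (-3.93, SE 0.51, edgeR adjusted p = 0.000131). It ran from -4.65 without Tead1/2 mutant 3 to -3.10 without Tead1/2 control 1, and passed in each of those fits. Among progenitor-like cells 15% and 13.5% of 14244 genes were called in these contrasts (8.29% higher and 6.73% lower for Insm1, 7.19% higher and 6.27% lower for Tead1/2). The p-values of Otx1 and Dmrta1 for each allele are again not independent of how these genes were chosen. The difference between the alleles in Otx1 was 3.64 there (SE 0.44, edgeR adjusted p = 0.000967), with 2.28% of genes called, a comparison chosen after the data were seen.

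Otx2 rose in the progenitor-like cells of both mutants. It was 49.1 and 30.6 CPM in Insm1 controls against 111.5, 77.5 and 61.5 CPM in mutants, and 46.9 and 42.6 CPM in Tead1/2 controls against 101.8, 85.6 and 93.5 CPM in mutants. Neither pair of groups overlapped. The log2 change was 1.07 (SE 0.22, edgeR adjusted p = 0.00410) for Insm1 and 1.06 (SE 0.21, edgeR adjusted p = 0.00401) for Tead1/2. Without Insm1 mutant 1, which kept the most Insm1, the first was 0.80 (adjusted p = 0.00957). Without Insm1 control 2 it was 0.78 (adjusted p = 0.0714), and without Tead1/2 control 2 the second was 0.997 (adjusted p = 0.0557). Choroid markers summed to less in the mutant than in the control progenitor-like cells, from 5.60 to 8.78 CPM to 2.35 to 4.03 CPM for Insm1 and from 11.5 to 36.8 CPM to 3.71 to 6.25 CPM for Tead1/2. Muscle markers moved with Otx2 in these cells: the 13 markers summed to 62.2 to 82.9 CPM in controls, 131 to 156 CPM in Insm1 mutants and 211 to 361 CPM in Tead1/2 mutants, and their part in the Otx2 rise was not tested. The difference between the alleles was 0.00 (SE 0.29, edgeR adjusted p = 1), a comparison chosen after the data were seen.

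**Figure D3:**
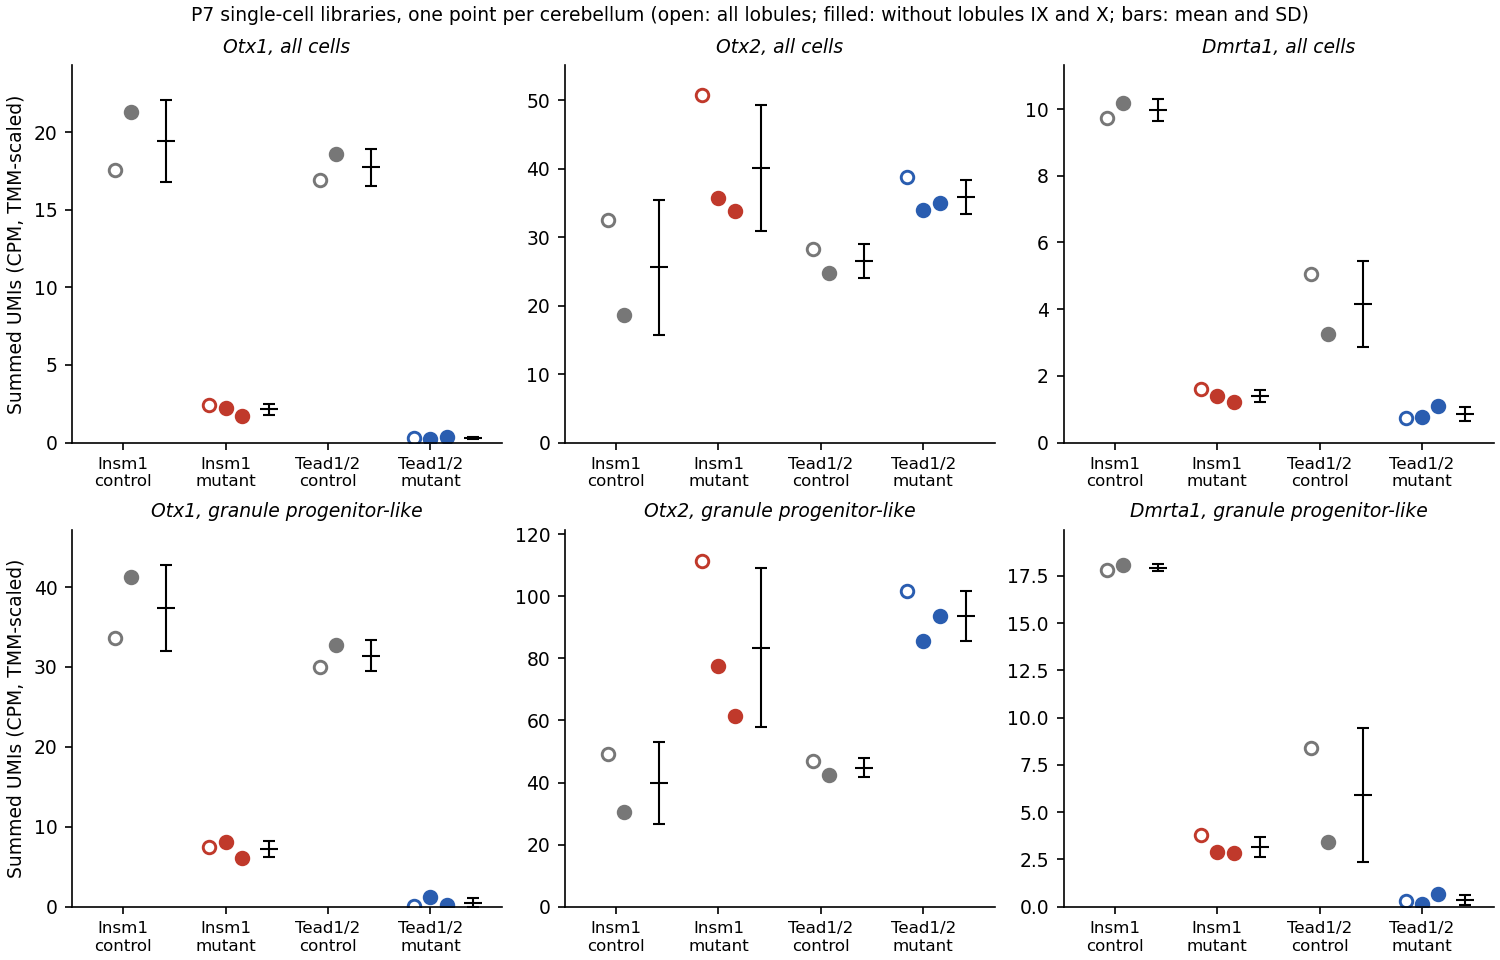
Summed UMIs in CPM (y axes, linear from 0) for the 10 P7 libraries by genotype group (x axes), over all cells (upper row) and over granule progenitor-like cells (lower row), with 1 point per cerebellum, open for all lobules and filled for those without lobules IX and X, and the mean and SD beside each group. Otx1 and Dmrta1 drop in both mutants, Otx2 rises in progenitor-like cells, and the open Otx2 point is the highest of its group in every panel.

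Progenitor-like cells of controls and mutants were spread differently over clusters. Clusters 0, 2, 3 and 4 held 99.4% to 99.9% of those cells in the control libraries, 28.8% of those of Insm1 mutants and 60.2% of those of Tead1/2 mutants. In the Insm1 mutant libraries 57.2% to 82.7% of them lay in clusters 5 and 25, which held 24 control cells among 1964 and 0 among 1164. Epha6 and Ano3 were among the leading genes of cluster 5, and cluster 25 was led by Tacr1, Cenpp and Bcl11b. Within the clusters shared with controls, Otx1 was 29.3 to 41.1 CPM in controls, 5.03 to 10.6 CPM in Insm1 mutants and 0.207 to 1.93 CPM in Tead1/2 mutants. Otx2 was 49.2, 30.4, 45.8 and 41.7 CPM in the 4 controls there, 143, 85.2 and 62.4 CPM in Insm1 mutants and 135, 145 and 144 CPM in Tead1/2 mutants. Fits over these clusters alone, chosen after the data were seen, gave Otx2 log2 changes of 1.38 (edgeR adjusted p = 0.00463) and 1.64 (edgeR adjusted p = 0.000209). In the clusters nearly without control cells, Otx2 was 61.1 to 88.8 CPM in Insm1 mutants and 31.9 to 40.6 CPM in Tead1/2 mutants. Otx2 was thus lower in clusters 5 and 25 than in the shared clusters in each of the 3 Tead1/2 mutants. It was lower in each of the 3 Insm1 mutants too (88.8 against 143, 75.0 against 85.2 and 61.1 against 62.4 CPM), narrowly so in mutant 3. The alleles drew on different clusters: cluster 25 held 871 Tead1/2 and 293 Insm1 mutant cells, and cluster 5 held 161 and 1779.

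**Figure D4:**
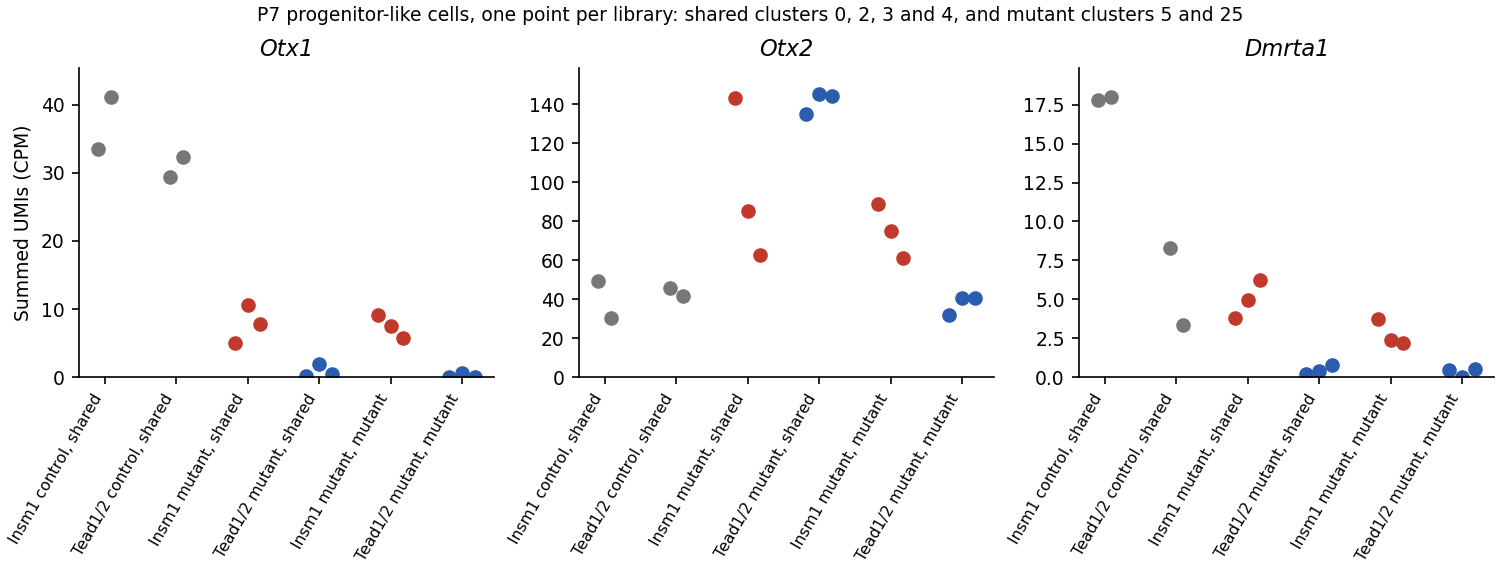
Summed UMIs in CPM (y axes, linear from 0) for progenitor-like cells at P7, with 1 point per library, in clusters 0, 2, 3 and 4 (shared with controls) and in clusters 5 and 25 (almost without control cells), by genotype (x axes). Tead1/2 mutants hold 135 to 145 CPM of Otx2 in the shared clusters and 31.9 to 40.6 CPM in the others, while Otx1 stays at or under 1.93 CPM in both.

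Shares of progenitor-like cells with a UMI were taken after thinning each cell to 2000 UMIs. Otx1 was found in 5.73% to 7.76% of control cells, 1.36% to 1.88% of Insm1 mutant cells and 0% to 0.437% of Tead1/2 mutant cells, where 0 of 1087 cells allows up to 0.276%. Without thinning the shares were 15.7% to 18.2%, 3.86% to 4.94% and 0.0912% to 1.01%. Otx2 was found in 5.86% to 8.63% of control cells and 12.9% to 20.4% of mutant cells, and unthinned in 12.6% to 21.2% and 33.6% to 45.0%. Dmrta1 was found in 0.779% to 3.18% of control cells and 0% to 0.736% of mutant cells after thinning. In microglia-like cells, which should lack these genes, the thinned shares were 0% to 1.61% for Otx1, 0% to 2.63% for Otx2 and 0% in every library for Dmrta1, on 24 to 298 cells per library. Their unthinned shares were 0% to 1.56%, 0% to 2.63% and 0%, at median depths of 3656.5 to 5607 UMIs against 4528 to 8695.5 UMIs in progenitor-like cells. The Otx1 shares of the Tead1/2 mutants lay within the microglial range. That range rests on few cells: after thinning, the single microglia-like cell with an Otx1 UMI was 1 of 62 in Tead1/2 control 2, and the microglia-like cells of the Insm1 libraries and of the Tead1/2 mutants held none. In the Tead1/2 mutants themselves 0 of 199, 298 and 232 thinned microglia-like cells allow up to 1.51%, 1.01% and 1.29%, so their progenitor-like shares were not distinguishable from background at this depth. Of the thinned Otx1 shares of the Insm1 mutants, those of mutants 2 and 3 lay within the microglial range and that of mutant 1 (1.88%) above it. All 3 unthinned shares lay above it, at median depths of 5593.5 to 6468.5 UMIs. Cells with both Otx1 and Otx2 UMIs numbered 32 to 58 in the control libraries, which is 10.7% to 16.4% of Otx1 cells and 11.6% to 15.2% of Otx2 cells.

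In granule neuron-like cells, where no test was planned, Otx2 was 9.50 to 25.8 CPM in the 4 controls, 28.3 to 41.0 CPM in Insm1 mutants and 44.2 to 56.2 CPM in Tead1/2 mutants. Otx1 was 4.91 to 6.09 CPM in controls and at most 0.849 CPM in any mutant, and Dmrta1 was 0.964 to 4.09 CPM in controls and at most 0.558 CPM in mutants. Clusters 6, 10 and 24, which held few control cells (1 of 1620, 81 of 1313 and 1 of 1603), made up 77.8% of the neuron-like cells of Insm1 mutants and 70.3% of those of Tead1/2 mutants. Otx2 was 54.8 CPM in cluster 6, 20.6 CPM in cluster 10 and 7.88 CPM in cluster 24, so it was not uniformly high in the clusters of the mutants.

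Otx2 was also present in the skeletal muscle-like cells, which in numbers of 20 or more were found only in mutant libraries. It was 98.1, 61.6 and 67.3 CPM in those of the 3 Insm1 mutants and 40.8, 46.6 and 46.4 CPM in those of the Tead1/2 mutants, on 153 UMIs or more each. Otx1 was at most 0.754 CPM and Dmrta1 at most 0.696 CPM in the same cells. These clusters are marked by embryonic myosins and Myog, a myogenic bHLH factor, and in cluster 21, led by the embryonic and perinatal myosins Myh3 and Myh8, Otx2 was 38.0 CPM, against 78.7 CPM in cluster 26, led by Esr1, Alk and Myog. Of all Otx2 UMIs in cells free of doublet calls, 54.1% lay in progenitor-like and 18.6% in skeletal muscle-like cells of Insm1 mutants, and 39.8% and 29.5% in those of Tead1/2 mutants. With doublet calls kept this order turned in all 6 mutants: skeletal muscle-like cells held 25.04% to 27.9% and progenitor-like cells 8.03% to 18.1% of Otx2 UMIs in Insm1 mutants, and 33.4% to 43.8% and 9.08% to 25.3% in Tead1/2 mutants. The unnamed cluster 27, with Acta2, Mypn and Unc45b in its lead, had 38.3 CPM of Otx2 and 2 control cells among 1285.

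Dmrta1 was also found in cells of the oligodendrocyte lineage. Cluster 29, with the oligodendrocyte precursor genes Enpp6 and Gpr17 among its markers, had 8.53 CPM of Dmrta1 on 39 UMIs, and the unnamed cluster 14, led by Lhfpl3, Sntg1 and Lrrtm4, had 8.09 CPM on 52 UMIs. Otx1 was 0.437 and 0.311 CPM in these clusters and Otx2 0.656 and 2.96 CPM. Cluster 14 carried 5 oligodendrocyte lineage markers against 2 of GABAergic interneurons. In the Tead1/2 mutants the oligodendrocyte lineage-like cells held 11.5, 8.32 and 6.03 CPM of Dmrta1, on 15, 11 and 8 UMIs. Of the 87 Dmrta1 UMIs of Tead1/2 mutant cells free of doublet calls, 39.1% lay in that class, 37.9% in cluster 14 and 9.20% in progenitor-like cells. In Tead1/2 controls 80.3% of 208 Dmrta1 UMIs lay in progenitor-like cells, 0.962% in the oligodendrocyte lineage and 1.92% in cluster 14. These shares move with cell numbers, since cluster 29 held 39 cells of Tead1/2 controls and 319 of the mutants, and cluster 14 held 107 and 438. They also rest on the removal of doublet calls. With the calls kept, oligodendrocyte lineage-like cells numbered 413 and 305 in Tead1/2 controls and 468 to 505 in the mutants, and held 11.3% and 21.8% of Dmrta1 UMIs in controls and 49.1% to 66.7% in mutants. In Insm1 mutants 67.7% of 93 UMIs still lay in progenitor-like cells. Among Tead1/2 mutant cells free of doublet calls, most Dmrta1 UMIs thus lay outside the progenitor-like class. Controls of the Insm1 allele had no cells in cluster 29 after that removal, but 365 and 380 oligodendrocyte lineage-like cells, with 100 and 165 Dmrta1 UMIs, when doublet calls were kept. Of these cells, 242 and 209 lay in a cluster led, like cluster 14, by Lhfpl3, Sntg1 and Lrrtm4. With calls kept, mean control Dmrta1 was 8.56 CPM in oligodendrocyte lineage-like, 6.64 CPM in GABAergic interneuron-like and 5.91 CPM in microglia-like cells. The UMIs of that set thus cannot be read as expression by the oligodendrocyte lineage. In Tead1/2 controls the 39 cells of cluster 29 held 5.33 CPM of Dmrta1 on 2 UMIs, against 8.59 CPM on 34 UMIs in the mutants. In cluster 14 it was 8.90 CPM on 6 UMIs and 5.18 CPM on 4 UMIs in Insm1 and Tead1/2 controls and 6.05 and 9.44 CPM in the mutants.

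Otx2 was higher where all lobules were kept, and the difference did not pass the threshold across all genes. Every library of all lobules is number 1 of its group, so the dissection cannot be told apart from the order or procedure of the libraries. In all 4 genotype groups the library with all lobules had the highest Otx2 level: 32.6 against 18.6 CPM, 50.7 against 35.7 and 33.9 CPM, 28.2 against 24.8 CPM, and 38.7 against 34.0 and 35.0 CPM. With the genotype groups as terms the log2 difference was 0.42 (SE 0.09, edgeR adjusted p = 0.725), in a contrast where edgeR called 0% of genes, with 1644 of 24602 at an unadjusted p under 0.05. DESeq2 gave 0.42 with an adjusted p of 0.0213, and edgeR without the filter on low counts 0.41 with an adjusted p of 0.0179. Ttr was the gene lower with all lobules among the 4 called in progenitor-like cells (-3.22, SE 0.49), at 23.7 CPM in Tead1/2 control 2, 1.82 CPM in Tead1/2 control 1 and at most 0.298 CPM in the other 8 libraries. In progenitor-like cells the Otx2 difference was 0.42 as well (SE 0.10, edgeR adjusted p = 0.289), with 0.0281% of genes called there, 0.0211% higher and 0.00702% lower, and DESeq2 gave an adjusted p of 0.0437. In controls alone it was 0.50 (SE 0.15) and in mutants alone 0.36 (SE 0.13) over all cells, both at an edgeR adjusted p above the threshold (1 and 0.619). In progenitor-like cells it was 0.40 (SE 0.15) in controls and 0.43 (SE 0.13) in mutants, where 0% and 1.14% of genes were called, and the difference of 0.03 (SE 0.20) was not called, with 0.00702% of genes called.

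Otx1 and Dmrta1 did not pass the threshold either. Over all cells the log2 difference between all lobules and those without IX and X was -0.00 (SE 0.13) for Otx1 and 0.14 (SE 0.16) for Dmrta1, with edgeR adjusted p of 0.999 and 0.844. In progenitor-like cells it was -0.19 (SE 0.15) and 0.44 (SE 0.22), with edgeR adjusted p of 0.734 and 0.587. Leaving out 1 library at a time gave Dmrta1 differences in these cells from 0.072 (without Tead1/2 control 2) to 0.82 (without Insm1 control 2), and none of the 10 fits passed. Thinned shares of progenitor-like cells differed by 0.583, 2.18 and 0.559 percentage points for Otx1, Otx2 and Dmrta1. Two-sided exact permutation tests within genotype groups gave p = 0.75, 0.389 and 0.194, or 0.75, 0.583 and 0.583 after adjustment over the 3 genes. These are differences of plain means, and mutants made up more of the libraries without lobules IX and X, so genotype enters them. The permuted differences are thus not centred on 0, and these p-values cannot decide on the dissection. In every genotype group the all-lobule library had the highest thinned Otx2 share. For Insm1 it was 8.14% against 5.86% in controls and 20.4% against 15.5% and 12.9% in mutants. For Tead1/2 it was 8.63% against 6.81% and 18.3% against 15.3% and 13.8%. Without thinning the Otx2 difference of plain means had the opposite sign (-0.69 points). Within groups the unthinned Otx2 share was higher with all lobules in Insm1 controls (20.1% against 12.6%) and Insm1 mutants (43.0% against 35.8% and 33.6%). It was also higher in Tead1/2 controls (21.2% against 19.9%), and lower in Tead1/2 mutants (38.5% against 41.4% and 45.0%). With 36 arrangements the smallest p that these tests can give is 0.0278. In both mutants the all-lobule library also had more of its progenitor-like cells in the clusters shared with controls (42.8% against 18.9% and 17.3% for Insm1, 71.5% against 49.1% and 54.2% for Tead1/2), and the part of this in the Otx2 levels was not tested.

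Other regional factors moved in both directions at P7. Of 31 tested over all cells, edgeR called 8 higher and 11 lower in Insm1 mutants (18.6% and 15.4% of all genes) and 5 higher and 14 lower in Tead1/2 mutants (25.9% and 22.7% of all genes), with list medians of -0.05 and -0.26 against 0.04 and 0.06 over all genes. Lhx1, a LIM-homeobox gene of Purkinje cells and GABAergic neurons, fell by 1.38 and 1.69 on the log2 scale in Insm1 and Tead1/2 mutants. En2 fell by 0.88 and 1.26, and the forkhead gene Foxp2 by 0.84 and 1.28. In Insm1 mutants Pax5 (-1.26) and En1 (-1.61) were also among the 5 calls of smallest p, and in Tead1/2 mutants the TALE-homeobox gene Meis1 (-0.78) and Ebf1 (-1.12). Irx3, an Iroquois homeobox gene, rose by 0.87 and 1.87. Tlx3, a homeobox gene known in glutamatergic neurons, was 3.64 and 3.34 CPM in Insm1 controls and 5.89, 6.22 and 6.05 CPM in Insm1 mutants (0.80, SE 0.14), and it differed between the alleles (1.32, SE 0.19). Ebf2 (0.59) and Fgf8 (2.93) also rose in Insm1 mutants, the latter from at most 0.0772 to at most 0.665 CPM, and Gbx2 (2.95), Irx5 (0.43) and Meis2 (0.74) in Tead1/2 mutants, Gbx2 to at most 0.142 CPM. Emx2 was called in both mutants at levels of at most 0.0944 CPM, with 0 UMIs in all 4 controls. Besides Tlx3, the regional factors whose changes differed between the alleles were Meis1 (0.43), Pax2 (0.54) and Fgf8 (3.23). Over all genes 3.68% were called in that contrast, 1.51% higher and 2.17% lower.

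In progenitor-like cells 20 regional factors were tested, of which 2 were higher and 10 lower in Insm1 mutants, and 1 higher and 5 lower in Tead1/2 mutants. Over all genes 8.29% were higher and 6.73% lower for Insm1, and 7.19% and 6.27% for Tead1/2, so the counts of higher calls lie near the background. Tlx3 there was 6.18 and 4.91 CPM in Insm1 controls and 14.4, 17.4 and 13.7 CPM in Insm1 mutants (1.44, SE 0.18), beside the rise of Otx2 in the same cells. Fgf8 was the other call that was higher, from at most 0.0744 CPM to at most 3.27 CPM. En2 (-0.85), Lhx1 (-0.83), Irx2 (-1.22), Foxp2 (-1.002) and Irx5 (-2.11) were the falls of smallest p. In Tead1/2 mutants Ebf2 rose by 0.77, and Foxp2 (-1.001), En2 (-0.56), Lhx1 (-0.64), Pax5 (-1.64) and Meis1 (-0.27) fell.

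Granule progenitor factors fell with Otx1 and Dmrta1 in the whole-library sums. Of 23 tested, 18 fell and 1 rose in Insm1 mutants and 19 fell and 1 rose in Tead1/2 mutants, with medians of -0.71 and -1.07. Over all genes 15.4% were lower and 18.6% higher for Insm1, and 22.7% lower and 25.9% higher for Tead1/2. Progenitor-like cells themselves were 40.4% and 41.5% of the cells free of doublet calls in Insm1 controls and 24.8% to 27.5% in the mutants of that allele. For Tead1/2 they were 45.3% and 45.2% in controls and 12.1% to 20.9% in mutants. These shares depend on how clusters were named: unnamed cells were 4.37% to 6.38% in control libraries and 14.2% to 27.3% in mutant libraries. The unnamed cluster 23, with 4 progenitor and 4 granule neuron markers, held 6.53% of Insm1 and 10.7% of Tead1/2 mutant cells. The part of the lower progenitor-like shares in the whole-library falls, those of Otx1 and Dmrta1 included, was not tested. The levels within progenitor-like cells are given beside them. Sfrp1 fell by 1.53 and 1.91 on the log2 scale, Gli1, a hedgehog effector, by 0.86 and 0.98, Barhl1 by 0.92 and 1.47, and Mfap4, a microfibril-associated protein, by 1.39 and 3.28. Nhlh1 was among the 5 falls of smallest p in Insm1 mutants (-1.29) and Mycn, a proliferation factor, in Tead1/2 mutants (-1.18). Hhip, an antagonist of hedgehog ligands, rose by 0.50 and 0.51. Within progenitor-like cells the counts were 11 fallen and 3 risen in Insm1 mutants and 7 fallen and 3 risen in Tead1/2 mutants, with medians of -0.29 and -0.07, against 6.73% lower and 8.29% higher and 6.27% lower and 7.19% higher over all genes. Hhip rose there by 1.62 and 2.05. Atoh1, Gli1, Gli2, Mfap4, Hhip, Barhl1, Ptch1 and Ccnd1 of this list also served as markers to name the class. Insm1, the gene deleted in the Insm1 mutants, is on the list as well. Counts of the list within these cells are thus tied in part to how the cells were chosen and are a description. Atoh1 itself, the gene that defines these progenitors, was 26.0 and 34.9 CPM in Insm1 controls and 20.02 to 29.3 CPM in Insm1 mutants, and it fell in Tead1/2 mutants from 23.9 and 24.9 CPM to 9.55 to 15.2 CPM (-0.94, SE 0.19). In the difference between the alleles over all cells Mfap4 (1.89), Boc (0.50), Mycn (0.75) and Ptch1 (0.36) were called, against 3.68% of all genes (1.51% higher and 2.17% lower).

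Muscle markers rose in the same libraries in which Otx1 fell. The 13 markers summed to 54.6 to 71.6 CPM in P7 controls, 5544 to 6547 CPM in Insm1 mutants and 12460 to 19890 CPM in Tead1/2 mutants in the sums over all cells. Of the colliculus markers, Pou4f1 rose (1.65 and 2.42) and Chrna3, a nicotinic receptor subunit, fell (-0.98 and -3.44), with 1 call in each direction of 6 tested in each mutant, near the shares over all genes (18.6% higher and 15.4% lower for Insm1, 25.9% and 22.7% for Tead1/2). The Chrna3 change also differed between the alleles (2.46, SE 0.32). In progenitor-like cells, which held it too, Chrna3 was 43.5 and 44.5 CPM in Insm1 controls and 45.4, 95.9 and 77.3 CPM in Insm1 mutants, opposite to the change over all cells though not past the threshold (0.72, edgeR adjusted p = 0.182), and in Tead1/2 mutants it fell (-2.43, edgeR adjusted p = 0.000505). Only Hoxd3 of the Hox genes was tested; it was at most 0.0205 CPM in controls and 0.0767 to 0.254 CPM in mutants. Among 8 relatives of the 3 genes, 3 were tested over all cells and none was called in Insm1 mutants. In Tead1/2 mutants Dmrt1 was lower (-2.18, SE 0.76), with 0.769 CPM in control 2 and 0.0653 to 0.142 CPM in all other libraries of that allele, and Dmrta2 was higher at an edgeR adjusted p of 0.0495 (0.50, SE 0.19).

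By Pearson r over the 15 P2 libraries the genes most like Otx1 were Spns2 (0.943), Mfng (0.939), Rftn1 (0.933), Clmp (0.926) and Hsd11b2 (0.920). Those most like Dmrta1 were Mfng (0.953), Clmp (0.947), St18 (0.945), Pcsk2 (0.934) and Islr (0.929), so Mfng, a fringe glycosyltransferase, and Clmp, an adhesion molecule, stood on both lists. Those most like Otx2 were Slc1a6 (0.861), Leng1 (0.830), Gas2 (0.827), Inhbb (0.821) and Abca4 (0.820), with none in common. Otx2 had an r of -0.196 with Otx1 and -0.447 with Dmrta1. Over 8 P7 cell classes in controls the nearest genes to Otx1 were Ankdd1a (0.978), Otx2 (0.975), Grid2ip (0.968), Rtn4r (0.966) and Thpo (0.964), and to Otx2 they were Tlx3 (0.990), A330008L17Rik (0.980), Grid2ip (0.978), Otx1 (0.975) and Gm12116 (0.972). For Dmrta1 they were Rab15, Rad54l2, Lrfn5, Polr2b and Psmc6, with r from 0.947 to 0.961. These points share genotype or library, so the values describe likeness only.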

How the data were processed

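The bulk values (P2) are gene-level expected counts from RSEM, deposited unscaled. The submitters' processing notes name STAR 2.7.9a, RSEM 1.3.3 and builds GRCm38.p6 and mm10. The kit was stranded, and the strand setting of the counting is not given in the sources used here. Columns were matched to samples by column name, since each table's name refers to the other allele, and 92 ERCC entries were left out. The single-cell values (P7) are deposited UMI counts for each barcode, without a filter on cells, and their gene tables name a GRCm39 build. Genotype and dissection come from the library names in the cell metadata.

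Expected counts were rounded and fitted in edgeR 4.0.16 (quasi-likelihood, TMM, filterByExpr) within each allele, and P7 sums over the 10 libraries, with Benjamini-Hochberg adjustment over all genes and a threshold of 0.05. CPM are TMM-scaled, except in single classes and clusters. DESeq2 1.42.0 was an alternative. Cells had at least 1000 UMIs, 500 genes and under 15% mitochondrial UMIs, which left 79838. Sums over all cells keep doublet calls. For classes, Scrublet calls at 1 common threshold (43.7% of cells, used because Scrublet set its own in 7 of 10 libraries only) were removed, leaving 44912, which were clustered in scanpy 1.11.5 (2000 variable genes, 30 components, Leiden resolution 1.0, 15 neighbours). A class needed at least 3 fixed markers over 1.5 times their mean over clusters, a margin of 2 and, for progenitors, Atoh1 in 5% of cells. The last pair of limits was set after clusters were seen. These limits do not account for every name, since clusters 14, 16 and 27 met the marker limits and yet stayed unnamed. They had 5, 3 and 11 markers of the best class against 2, 1 and 2 of the next. Libraries shared 0 barcodes. Intervals and floors cover counting error only. The fits were tested on simulated data.

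Genes named from the lists are the called ones, up to 5 per direction by p-value; likeness uses the top 5. The members and lists were chosen with earlier results of these data known. The labels name individual pups, so replicates are animals. The share of all genes whose groups do not overlap was not counted at either age. The bulk alleles are labelled as different batches and were compared within each only. ATAC-seq and CUT&RUN samples were not analysed here.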

Additional observations from a re-analysis of the deposited data

Results flagged for a closer look

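In the P2 groups of 4 libraries, looked at for each of the 3 genes (9 combinations over the same libraries, so not independent), 1 combination held a library far from the others: at P2 Dmrta1 was 7.63 CPM in the library labelled Tead1/2 mutant 4, and the gap to the next of its group was 0.975 of the group's range. Chance alone sets apart about 1 in 20 such combinations.

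The fall of Otx1 at P7 differed between the alleles. The difference of log2 changes, Insm1 minus Tead1/2, was 2.74 over all cells (edgeR adjusted p = 0.00105) and 3.64 in granule progenitor-like cells (edgeR adjusted p = 0.000967, chosen after the data were seen).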

How the results depend on the processing

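Under settings other than leaving out a library, 181 values kept their direction and side of the threshold or stayed within the allowed range, and the others follow. For P2 Insm1 the count of called genes was 135, and 312 with DESeq2, 212 with no filter and 64 with the replicate block. For P2 Tead1/2 it was 0, and 960 with DESeq2, 1287 with no filter, 236 with the replicate block and 4 with all 15 libraries in 1 fit. The replicate block also gave P2 Tead1/2 log2 differences of -3.71 for Otx1 and -1.995 for Dmrta1. In that fit the library labelled Tead1/2 mutant 4 stood alone under its number, so it added nothing to these differences. Library numbers showed no clear pairing of the samples. Same-numbered libraries had r from -0.131 to 0.227 at P2 (over 0.1 in 1 of 4 Insm1 pairs and 0 of 3 Tead1/2 pairs) and from -0.124 to 0.0365 at P7. Differently numbered P2 libraries had r from -0.319 to 0.267, and the 2 controls of an allele at P7 mirror each other once centred. The check thus cannot exclude a pairing, and at P7 number 1 marks the libraries of all lobules. In P7 all cells Otx2 missed the threshold for Insm1 with doublet calls removed (0.73, adjusted p = 0.0517) and with all barcodes (0.63, 0.0522), and passed it for Tead1/2 with a replicate block by number (0.50) or by dissection (0.51). The count of genes differing between the alleles was 906, and 2133 with DESeq2 and 325 in progenitor-like cells, where the Dmrta1 difference reversed to 1.46. Progenitor-like counts of 2139 (Insm1) and 1917 (Tead1/2) became 362 and 851 in clusters shared with controls. The dissection count was 0 over all cells, and 17 with DESeq2 and 49 with no filter, and in progenitor-like cells 4, and 18 with DESeq2, 397 with no filter, 0 with doublet calls kept and 0 in the shared clusters. Otx2 then passed with DESeq2 (0.42 over all cells and 0.42 in progenitor-like cells) and with no filter (0.41 and 0.42), and Otx1 with DESeq2 was 0.0042. The unthinned Otx2 share difference, a difference of plain means that genotype enters, reversed to -0.69 points. With doublet calls kept, control levels were 6.82 CPM for Otx1 in granule neuron-like cells, and medians over other classes were 14.5 (Otx1), 20.9 (Otx2) and 5.63 CPM (Dmrta1), so low levels outside the granule lineage rest on the removal of doublet calls. The block by dissection, the difference in progenitor-like cells and the shared clusters were chosen after seeing the data. Apart from that block, the cause of these shifts was not tested.

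Leaving out 1 library at a time gave counts of 64 to 132 (P2 Insm1), 0 to 646 (P2 Tead1/2, the highest without the library labelled Tead1/2 mutant 4), 195 to 1187 (P7 difference, lowest without Tead1/2 control 2), 1300 to 2626 and 1095 to 2598 (progenitor-like Insm1 and Tead1/2) and 0 to 10 (progenitor-like dissection). For P2 Tead1/2 the log2 difference ran from -3.49 to -1.80 for Otx1 and from -2.03 to -1.01 for Dmrta1. Otx2 ran from 0.28 to 1.09 (P7 Insm1, all cells), 0.35 to 0.53 (Tead1/2), -0.16 to 0.65 (their difference), 0.78 to 1.44 and 0.997 to 1.14 (progenitor-like Insm1 and Tead1/2). The Otx2 difference reversed to -0.16 without Insm1 control 2 and to -0.0096 without Insm1 mutant 1. The dissection difference over all cells ran from -0.15 to 0.10 for Otx1 and from -0.022 to 0.28 for Dmrta1.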
